A study of Mus musculus with 22 samples.

Results

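The 300 longest open stretches of adipocyte chromatin were taken from the peak lists of 22 assay for transposase-accessible chromatin (ATAC-seq) libraries of epididymal adipocyte nuclei of the mouse. A stretch was built from every base of chromosomes 1 to 19 that lay under a peak in at least 11 of the 22 libraries, and neighbouring pieces at most 2000 bp apart were joined. This gave 38195 stretches. The members were chosen by length alone as the 300 longest, with the stretch over Adipoq (chr16:23088923-23268205, mm10) left out. The mice carry a Cre transgene driven by Adipoq sequences. They made up 0.785% of the number of stretches and, at 19.1 Mb, 10.4% of their summed length. The rule used the peak positions of all 22 libraries without regard to group, so lengths and covered shares are given as a description, and a region open in few libraries could not enter.

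The study asked whether adipocytes keep epigenetic marks of obesity after weight loss. All mice were labelled as carrying AdipoERCre and NuTRAP alleles, in which a tamoxifen-inducible Cre driven by Adipoq sequences tags the nuclei of adipocytes, and the label was switched on before the diets began. The tag therefore marks cells that were adipocytes at that time and their nuclei are pulled down in bulk. The mice were male, on a background given as C576BL6 in the labels and as C57BL/N in the methods, and each library was labelled as a biological replicate.

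The short arm held chow controls at 18 weeks of age (C, n = 3), mice on a high-fat diet for 12 weeks at 18 weeks of age (H, n = 3), controls at 26 weeks (CC_s, n = 3) and mice given the high-fat diet for 12 weeks and then chow for 8 weeks (HC, n = 3, 26 weeks). The long arm held controls at 31 weeks (CC_l, n = 2), mice on a high-fat diet for 25 weeks (HH, n = 3, 31 weeks), controls at 39 weeks (CCC, n = 2) and mice given the high-fat diet for 25 weeks and then chow for 8 weeks (HHC, n = 3, 39 weeks). The CC_s and CCC controls received the same last 8 weeks of chow as the weight loss groups. H and HH are called obese and HC and HHC weight loss. Arm and library series coincide, so every difference below was taken within an arm.

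ATAC-seq marks DNA that the Tn5 transposase can reach, which is mostly free of nucleosomes at active promoters and enhancers. Genes that define a cell type often lie in long clusters of such elements, and in fat cells the clusters surround genes of lipid storage and of the transcription factors that set the cell type, such as Pparg and Cebpa. Peaks called on coverage join into long blocks where such elements lie close together. The sequences around the strongest shared points of the longest members, and of the members with the smallest p by total signal in obesity and in weight loss over both durations, are shown first as examples of the DNA inside these blocks.

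Each sequence is the 200 bases around the point where the largest number of libraries had their summit, from RefSeq GRCm38.p6, plus strand, 5′ to 3′. Capitals mark matches on either strand to TTGCNNAA, the C/EBP motif, or to CCCNNGGG, the EBF motif. The first 4 come from the longest members. The Col4a1/Col4a2 window lies in a Col4a1 intron, where 13 libraries had their summit, and holds 2 C/EBP matches. The Rufy4/Tns1 window lies in a Tns1 intron (12 libraries) and holds 1 EBF match. The Zbtb16 window lies in a Zbtb16 intron (8 libraries) and holds 2 C/EBP matches. The Ppp2r1b/Sik2 window lies in an Alg9 intron (19 libraries) and holds 1 C/EBP match. The Fads3 window lies in a Fads3 intron 2160 bp from a start site (6 libraries) and holds 1 EBF match. The Pik3r1 window lies outside genes, 549 bp from the Pik3r1 start site (17 libraries), and holds none of the motifs searched.
Col4a1/Col4a2, chr8:11249893-11250092: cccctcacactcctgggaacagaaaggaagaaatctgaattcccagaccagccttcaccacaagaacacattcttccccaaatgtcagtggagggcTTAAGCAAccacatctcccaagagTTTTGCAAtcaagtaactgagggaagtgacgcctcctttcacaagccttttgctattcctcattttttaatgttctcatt
Rufy4/Tns1, chr1:73963165-73963364: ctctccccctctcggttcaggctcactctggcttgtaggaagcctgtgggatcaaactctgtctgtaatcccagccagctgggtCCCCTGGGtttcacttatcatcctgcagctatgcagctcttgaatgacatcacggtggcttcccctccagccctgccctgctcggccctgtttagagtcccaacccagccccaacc
Zbtb16, chr9:48745026-48745225: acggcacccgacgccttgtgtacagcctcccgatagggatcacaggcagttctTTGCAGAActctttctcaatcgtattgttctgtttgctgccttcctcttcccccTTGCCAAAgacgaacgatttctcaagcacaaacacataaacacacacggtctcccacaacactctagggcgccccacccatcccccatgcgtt
Ppp2r1b/Sik2, chr9:50835102-50835301: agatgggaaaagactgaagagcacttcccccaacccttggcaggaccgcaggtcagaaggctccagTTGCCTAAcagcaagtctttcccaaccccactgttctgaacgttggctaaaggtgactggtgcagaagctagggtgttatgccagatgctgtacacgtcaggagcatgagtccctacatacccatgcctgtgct
Fads3, chr19:10043792-10043991: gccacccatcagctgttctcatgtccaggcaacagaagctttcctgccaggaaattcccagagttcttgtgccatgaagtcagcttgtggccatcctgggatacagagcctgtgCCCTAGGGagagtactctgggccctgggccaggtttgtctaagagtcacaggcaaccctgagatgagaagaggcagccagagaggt
Pik3r1, chr13:101768666-101768865: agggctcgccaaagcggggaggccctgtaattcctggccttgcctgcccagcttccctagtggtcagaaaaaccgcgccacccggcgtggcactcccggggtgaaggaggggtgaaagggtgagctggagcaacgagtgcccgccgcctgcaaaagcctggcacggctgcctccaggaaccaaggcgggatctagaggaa

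Over all 300 members, such a window held the C/EBP motif in 18.7%, against 18.4% over all stretches and 21% in the next 300 by length. The EBF motif was found in 12.3% of members, 15.7% of the next 300 and 10.3% of all. The largest gap was in GGGCGG, the motif of SP and KLF factors, at 32% of members, 31.7% of the next 300 and 19% of all stretches. The member windows lay within 1000 bp of a coding start in 36.3%, against 43.7% of the next 300 and 23.8% of all. TGANTCA, bound by AP-1, was held by 3.33% of members, 7.67% of the next 300 and 8.00% of all stretches. The other motifs searched on both strands were ACANNNTGT of the glucocorticoid receptor (6.67% of members, 7.09% of all), CCGGAAG of ETS factors (4% against 5.10%), direct repeats of AGGNCA 1 base apart (0.333% against 0.658%) and TTGGC with GCCAA 5 bases apart of NFI factors (0% against 0.0711%). The AP-1 share was also lower in windows away from starts, at 4.19% of members, 9.47% of the next 300 and 9.61% of all. There C/EBP was at 26.7% of members, 27.8% of the next 300 and 22.2% of all. GGGCGG was at 12.6%, 10.1% and 6.74% in the same order. These shares describe letters in a window and were not tested. The windows also differed in base composition, with a median GC content of 56.25% in members, 57.5% in the next 300 and 51.5% in all. The part of GC content in the motif shares was not tested.

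Members ran from 39567 to 281161 bp with a median of 53318 bp, against 2703 bp for all stretches and 27390 to 39523 bp for the next 300. There were 26 above 100 kb. At the threshold, the Fam129c/Nxnl1/Pgls/Slc27a1/Tmem221 stretch measured 39604 bp, Ech1/Hnrnpl/Lgals4 39580 bp and Mindy1/Prune1 39567 bp. Just outside it came Gm49711/Mrps6/Slc5a3 at 39523 bp, Abhd5 at 39477 bp and Hs1bp3 at 39395 bp. Blocks just inside and outside the set are thus nearly equal in length. Bases covered in at least 11 libraries made up 97.2% of the members' length, and 58 members were 1 unbroken piece, with a median of 3 pieces and at most 14. The fewest libraries with a peak in a member were 19, at Sprr2a2.

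The longest member covered Col4a1 and Col4a2, the paired genes of type IV collagen of the basement membrane (chr8:11186195-11467355, 281161 bp). The next was Rufy4/Tns1 (chr1:73898982-74134740, 235759 bp), where Tns1 encodes a focal adhesion protein. Zbtb16, a zinc finger transcription factor, followed with chr9:48644101-48839900 (195800 bp), and Ppp2r1b/Sik2, with a salt-inducible kinase, with chr9:50825592-51010941 (185350 bp). Among the others of the 12 longest were Sptbn1, a spectrin (175707 bp), Pparg, the nuclear receptor that directs fat cell formation (165445 bp), Zeb2, a zinc finger factor (155347 bp), Eepd1 (136648 bp), Crat/Dolpp1/Miga2/Ptpa/Sh3glb2, with carnitine acetyltransferase (130930 bp), Lama4, a laminin chain (128239 bp), and Mbnl2, a splicing factor (123239 bp). The median covered share of the members named here, the percentage of a stretch's bases under a peak of a library, was between 88.2% (Mbnl2) and 98.7% (Eepd1). Pparg lay whole inside its stretch (chr6:115360908-115526352) and took up 78.2% of it.

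A protein-coding start site (GENCODE vM21) lay in 250 members (83.3%), against 75% of the next 300 and 27.0% of all stretches, which are far shorter. Of the rest, 39 lay in a gene body and 11 outside coding genes. There were 54 members with 3 or more starts, up to 11. In 98 members at least 90% of the stretch lay in 1 gene, and 140 held at least 90% of their main gene. Per Mb, members held 26.1 coding starts, the next 300 held 42.4 and all stretches 67.8, while gene bodies took up 80.3%, 72.7% and 64.6% of their bases. Long stretches were thus poorer in starts per base and richer in gene body. Chromosome 8 held 28 members (21.6 per 100 Mb), chromosome 19 held 13 (21.2) and chromosome 13 held 3 (2.49).

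In all, 495 coding genes started in a member, 2.38% of the 20807 on these chromosomes, and 57.6% started in any stretch. Of 45 genes of lipid storage and adipokines, 21 started in a member (46.7%) and all 45 in some stretch. They were the lipases and lipid droplet genes Plin4, Lpl, Lipe, Pnpla2 and Mgll, the genes of fatty acid and triglyceride synthesis Dgat2, Gpam, Agpat2, Lpin1, Fasn, Acacb and Me1, the uptake genes Cd36, Slc27a1, Acsl1 and Cav1, Pck1 and Pcx, the secreted factors Retn and Cfd, and the receptor Adrb3. Of 36 adipocyte transcription factors and coregulators 9 did (25%), among them Pparg, Cebpa, Rxra, Srebf1, Nr3c1, Foxo1, Nrip1 and Zbtb16. Of 30 insulin signalling genes 5 did, among them Irs2, Pik3r1, Akt2 and Foxo1, and of 30 extracellular matrix genes 6 did, namely Col4a1, Col4a2, Col15a1, Lama4, Sparc and Adamts5. None of 30 inflammatory genes did, although 26 started in some stretch.

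The label of adipocyte chromatin was checked against marker genes. Of 10 adipocyte markers 6 started in a member (Lipe, Pparg, Cebpa, Cd36, Lpl, Cfd) and all 10 in some stretch, and all 10 had a promoter peak in every library. None of 12 macrophage, 10 progenitor, 8 mesothelial or 9 lymphocyte markers and none of 10 genes of other tissues started in a member. In some stretch, however, 1 of the macrophage, 5 of the progenitor and 4 of 12 endothelial markers and 2 of the 10 genes of other tissues started, and 4 to 8 progenitor markers had a promoter peak in every library. Of the 12 endothelial markers 1 started in a member, Egfl7, which shares its stretch with the acyltransferase gene Agpat2. Macrophage markers had a promoter peak for 2 to 7 of 12 genes, depending on the library, and genes of other tissues for 2 to 5 of 10.

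**Figure D1:**
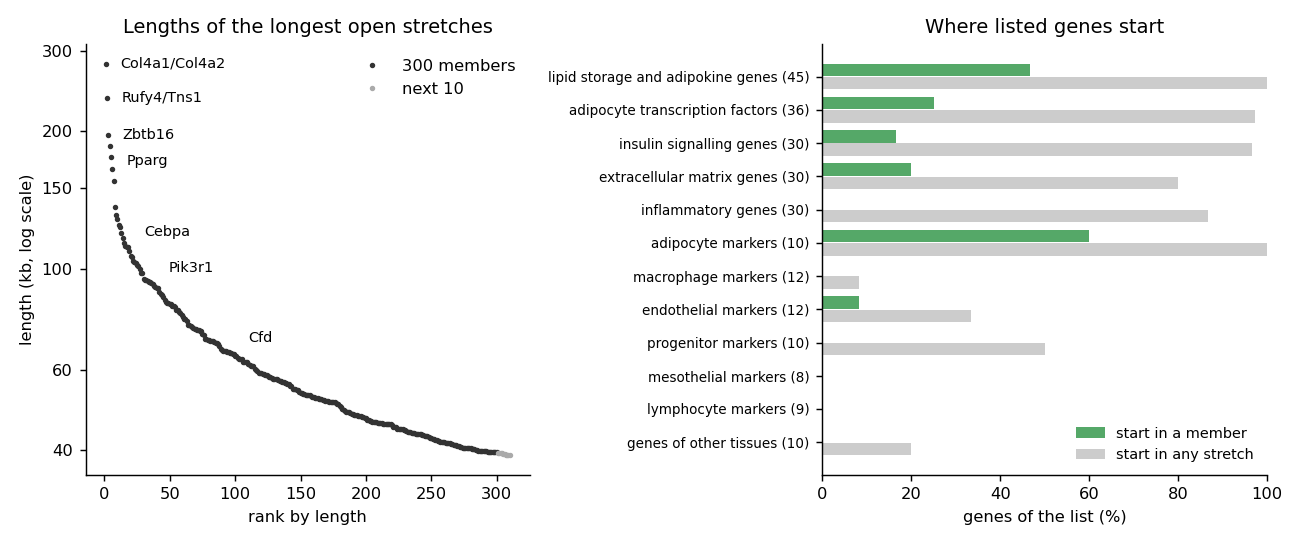
Left, length in kb on a log axis against rank for the 300 members and the next 10 stretches, and right, the percentage of the genes of each list that start in a member (green) or in any stretch (grey). Lipid storage genes reach 46.7% in members, adipocyte markers 60%, and inflammatory, macrophage, progenitor, mesothelial and lymphocyte genes 0%. Of all coding genes 2.38% start in a member.

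Signal per base was higher in the typical member than in the typical stretch. Relative density, the signal per base of a stretch divided by that over all stretches of the same library, had a median of 0.99 over members and ran from 0.378 to 6.92. The median within a library averaged 0.977 ± 0.156 for members and 0.697 ± 0.113 for all stretches (SD, n = 22 libraries). The highest was at Pdia4, a protein disulphide isomerase gene (chr6:47737043-47783167), followed by Eif4enif1/Sfi1 at 5.83, the Plin4/Plin5 stretch of lipid droplet coat genes at 2.93, Cnfn/Lipe with hormone-sensitive lipase at 2.37 and Amotl2 at 2.22. These 5 were picked after their values were seen. Eif4enif1/Sfi1 was higher in the 4 libraries set apart below, at 8.39 to 20.4 against 3.51 to 8.85 in the other 18.

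Before groups are compared, 4 libraries have to be set apart, because they covered under 50% of the Adipoq stretch: HC 3, HH 1, CCC 2 and HHC 3. They covered 15.7% to 25.2% of it, against 92.9% to 100% in the other 18. The 100 kb on either side of it were covered to 0% to 12.1% in every library. Relative density over the Adipoq stretch was 0.260 to 0.281 in the 4 against 1.53 to 2.64. They had more peaks (55906 to 60061 against 39894 to 54313) with a lower median highest signal (17 to 33 against 34 to 107). Endothelial markers had a promoter peak for 6 to 12 of 12 genes in them and for 3 to 5 in the others. In ppm of the summed stretch signal of a library, endothelial promoters took 167 to 353 against 110 to 177, and adipocyte promoters 420 to 542 against 530 to 751. The values at Adipoq, the gene whose sequences drive the transgene, thus set these 4 apart from libraries with the same genotype label. Whether genotype, other nuclei or depth account for them was not tested. The main counts and medians, and the differences of most named members, are also given for the other 18.

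The members' bases were covered to 86.0%, 93.9% and 97.5% in C, 87.6%, 86.8% and 87.8% in H, 85.2%, 98.0% and 95.5% in CC_s and 94.6%, 89.0% and 42.2% in HC. In the long arm they were covered to 78.3% and 91.1% in CC_l, 60.2%, 89.9% and 84.3% in HH, 94.1% and 81.4% in CCC and 84.7%, 96.6% and 42.9% in HHC. The lowest 3 values belonged to libraries set apart, and every diet group overlapped its control. Group means ± SD were 92.5 ± 5.88 (C), 87.4 ± 0.547 (H), 92.9 ± 6.82 (CC_s), 75.3 ± 28.8 (HC), 84.7 ± 9.05 (CC_l), 78.1 ± 15.8 (HH), 87.7 ± 8.96 (CCC) and 74.7 ± 28.2 (HHC). Members under 50% covered numbered 2 to 216 in the 4 libraries and 0 to 10 in the 18.

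**Figure D2:**
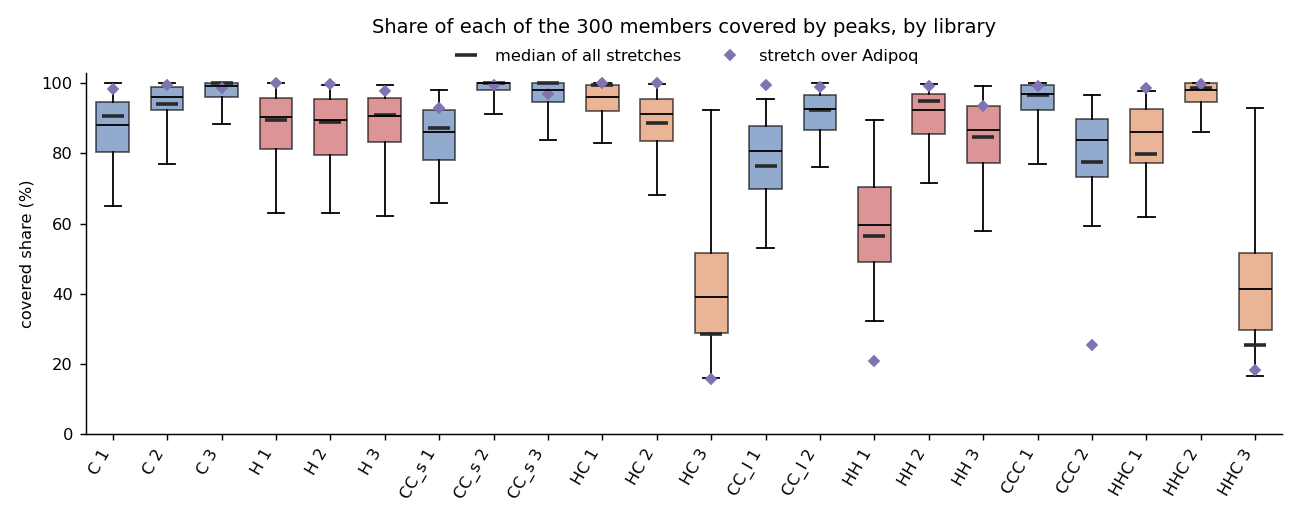
Covered share in percent of the 300 members in each of the 22 libraries (box, quartiles; whiskers, 5% to 95%), with the median of all stretches (dash) and the Adipoq stretch (diamond). Controls are blue, obese red and weight loss orange. HC 3 and HHC 3 lie lowest, and the diamond drops to 15.7% to 25.2% in 4 libraries.

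Covered bases chose the members, and most members lie near full coverage, so the following counts by covered share are a description and a count of 0 does not show that groups were alike. By covered share no member was called in any comparison (limma, Benjamini-Hochberg adjusted p under 0.05). For H vs C the count was 0 where 0.298% of all stretches tested were called, for HC vs CC_s 0 beside 0.0731%, for HH vs CC_l 0 beside 0% and for HHC vs CCC 0 beside 0%. Over both durations it was 0 beside 0.293% (obese) and 0 beside 0.0207% (weight loss). Between the control groups it was 0 beside 0% for both CC_s vs C and CCC vs CC_l. In the 18 libraries CCC is left with 1 library, which is assumed to vary like the other groups of the joint fit, so the HHC vs CCC and CCC vs CC_l values there rest on a lone control. The count was 0 in all of these comparisons in the 18 libraries as well, beside 0.55% of all stretches for H vs C, 0% for HC vs CC_s, 0.0311% for HH vs CC_l, 0.0286% for HHC vs CCC, 0.867% for obesity, 0.00375% for weight loss, 0% for CC_s vs C and 0.00835% for CCC vs CC_l. At an unadjusted p under 0.05 the members counted 24 for H vs C (8% of members, 11.1% of all), 4 for HC vs CC_s (1.33%, 1.42% of all), 0 for HH vs CC_l (2.67% of all), 0 for HHC vs CCC (0.927% of all), 1 for CC_s vs C (0.333%, 0.77% of all) and 1 for CCC vs CC_l (0.333%, 1.18% of all). They counted 2 for obesity over both durations (0.667%, 8.5% of all) and 33 for weight loss (11%, 12.5% of all).

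The median member difference in covered share was close to that of all stretches in the comparisons over both durations. For obesity over both durations it was -5.77 percentage points in members and -4.94 in all stretches, and for weight loss -15.6 in both. Without the 4 libraries these medians were -0.793 and -2.20 in members, so most of the drop after weight loss rested on those libraries. Fam13a, a gene linked to fat distribution, was among the members of smallest p in H vs C, covered to 94.7% ± 4.63 in C and 46.6% ± 10.2 in H (n = 3 each).

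Total signal, the summed peak signal of a stretch, was compared after each library's values were mapped by rank to 1 shared distribution, so a log2 difference is a change relative to other stretches of the same library. In bulk nuclei a lower value can come from fewer nuclei of a type or from less signal per nucleus, and these cannot be told apart. All 300 members had enough peaks to be tested in every comparison. In H vs C 45 members were called (15%, against 9.15% of all stretches tested), 25 higher (8.33%, against 5.42%) and 20 lower (6.67%, against 3.72%). With 18 libraries fitted together the count was 69 (23%, against 14.1%). It was 15 with all 22 libraries fitted together, 5 by highest signal, 0 with signal as a share of the library, and 0 without C 1 to 58 without C 3. The median difference was -0.02 in members and -0.02 in all. The median of the peaks' highest signal was 47 to 64 over the H libraries and 72 to 107 over the C libraries, without overlap, and its part in these differences was not tested.

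The other within-arm comparisons called no member at the adjusted threshold. For HC vs CC_s 0 members were called (0% of all), with 54 at an unadjusted p under 0.05 (18%, against 9.62%). For HH vs CC_l 0 were called (0% of all), with 69 unadjusted (23%, against 12.2%), and for HHC vs CCC 0 (0% of all), with 13 unadjusted (4.33%, against 4.8%). Between controls, CC_s vs C gave 0 (0% of all) and 22 unadjusted (7.33%, against 6.52%), and CCC vs CC_l gave 0 (0% of all) and 46 unadjusted (15.3%, against 11.2%). Without the 4 libraries, HC vs CC_s called 11 members (3.67%, against 0.425%) and HH vs CC_l 15 (5%, against 2.1%). For HHC vs CCC the count was 0 (against 0.00816%), but with CCC 1 as the lone control and the spread taken from the other groups this says little. The difference between durations called 0 members for obesity (0% of all, 6 unadjusted or 2% against 3.03%) and 0 for weight loss (0.00345% of all, 6 unadjusted or 2% against 3.51%).

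Over both durations, 27 members were called in obesity (9%, against 6.19% of all), 14 higher (4.67%, against 3.49%) and 13 lower (4.33%, against 2.7%). After weight loss 13 members were called (4.33%, against 1.21%), with 0 higher (against 0.421%) and 13 lower (4.33%, against 0.787%). All 27 were also called among the 94 in the 18 libraries (31.3%, against 16.2%), where 51 were higher (17%, against 9.23%) and 43 lower (14.3%, against 7.01%). Of the 13 weight loss calls, 7 were among the 11 made in the 18 libraries (3.67%, against 0.518%), 8 lower (2.67%, against 0.267%) and 3 higher (1%, against 0.251%). All weight loss calls were thus in 1 direction only with the 4 libraries included. Leaving out 1 library moved the counts from 9 (without CC_l 1) to 56 (without HHC 3) for obesity and from 4 (without CCC 2) to 21 (without HHC 1) for weight loss. With total signal as a share of the library in place of rank mapping, 1 member passed in obesity and 3 after weight loss, and all 27 and 13 differences kept their sign. The 1 was Fads3, and the 3 were Pgm3/Rwdd2a, Cdc42bpg/Ehd1 and B4galt1. By the highest signal of a stretch, 3 of the 27 (Fads3, Tkt and Slc41a3) and 1 of the 13 (the Fasn stretch) were called. Median differences in members were -0.02 for obesity and -0.12 for weight loss, against 0.00 and 0.02 in all stretches, and the weight loss median was 0.02 in members without the 4 libraries.

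Pik3r1 encodes the regulatory subunit of PI 3-kinase, which carries the insulin signal inward. Its stretch (chr13:101677221-101770503, 93283 bp in 1 piece, holding the whole gene) had log2 total signals of 21.25, 21.56 and 20.92 in C and 19.82, 20.03 and 20.34 in H. In CC_s they were 21.18, 21.32 and 21.64 and in HC 19.78, 20.07 and 19.53. In the long arm they were 21.04 and 21.10 in CC_l, 20.16, 20.46 and 20.13 in HH, 21.64 and 21.18 in CCC and 20.92, 20.57 and 20.05 in HHC. Every obese and weight loss library lay below every library of its control group. The difference was -0.998 for obesity (SE 0.16, limma adjusted p = 0.00106) and -1.24 for weight loss (SE 0.16, adjusted p = 0.000656). In the 18 libraries it was -0.98 (adjusted p = 0.000281) and -1.18 (adjusted p = 0.0102), and both calls were made in all 22 fits that left out 1 library. Neither was made with signal as a share of the library or by highest signal, and over all alternatives the adjusted p reached 0.0956 for obesity and 0.165 for weight loss.

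Fasn, fatty acid synthase, shares its stretch with Dus1l, Gps1 and Rfng (chr11:120780919-120834259) and was the other member called lower in both. It stood at 20.60, 20.08 and 20.77 in C, 19.36, 19.58 and 19.86 in H, 20.03, 19.72 and 20.49 in CC_s and 19.34, 19.21 and 19.70 in HC. The long arm gave 19.74 and 19.41 in CC_l, 19.23, 19.27 and 19.34 in HH, 20.62 and 20.03 in CCC and 19.17, 19.37 and 18.93 in HHC. No diet group overlapped its control, with the gap smallest between HH and CC_l and between HC and CC_s. The difference was -0.59 for obesity (SE 0.16, limma adjusted p = 0.0323) and -0.91 for weight loss (SE 0.16, adjusted p = 0.00779). In the 18 libraries it was -0.58 (adjusted p = 0.0158) and -1.08 (adjusted p = 0.0262). The obesity call was made in 13 of the 22 fits that left out 1 library and the weight loss call in 21. With signal as a share of the library neither passed, and by highest signal the obesity difference did not.

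Among members called in obesity alone, Fads3 of the fatty acid desaturase cluster had the smallest p (chr19:10029038-10072555). It stood at 19.30, 19.30 and 19.49 in C and 20.32, 20.50 and 20.13 in H, and at 19.16 and 19.07 in CC_l and 19.89, 19.98 and 20.41 in HH. After weight loss it stood at 19.83, 20.15 and 19.64 in HC against 19.80, 19.47 and 19.73 in CC_s, and at 19.49, 19.36 and 19.60 in HHC against 19.62 and 19.41 in CCC. Obese and control libraries did not overlap, and weight loss and control libraries did. The difference was 0.97 for obesity (SE 0.12, limma adjusted p = 9.27e-05) and 0.09 for weight loss (adjusted p = 0.72), and in the 18 libraries 1.02 (adjusted p = 4.66e-05) and 0.06 (adjusted p = 0.87). The obesity call was made under each alternative of scaling, measure, peak list, joining, library number and block, with an adjusted p of at most 0.0314, but the difference of 0.97 lies under the log2 difference of 1 that the stricter rule also requires.

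Bcar3, an adaptor protein gene of integrin and growth factor signalling, rose by 1.31 in obesity (chr3:122444120-122528362, SE 0.20, limma adjusted p = 0.000777). It stood at 18.75, 18.70 and 18.98 in C, 20.02, 20.49 and 19.80 in H, 18.66 and 18.79 in CC_l and 20.004, 20.04 and 20.09 in HH, again without overlap. After weight loss it stood at 19.87, 19.37 and 18.36 in HC against 18.73, 18.93 and 18.66 in CC_s and at 18.62, 19.49 and 18.84 in HHC against 18.85 and 18.66 in CCC. The weight loss libraries lay on both sides of their controls, and the difference of 0.33 did not pass (adjusted p = 0.41). Its differences in the 18 libraries were 1.32 (adjusted p = 8.72e-05) and 0.53 (adjusted p = 0.24). The obesity call was not made with signal as a share of the library or by highest signal, where the adjusted p was as high as 1.

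The stretch with Cfd, which encodes adipsin (chr10:79873174-79938641), also holds Arid3a, Elane, Gm26602, Kiss1r, Med16, Plppr3, Prtn3 and R3hdm4. It stood at 20.42, 20.60 and 19.94 in C, 19.67, 19.45 and 19.65 in H, 20.84 and 20.80 in CC_l and 19.70, 19.78 and 19.47 in HH. In the weight loss comparison it stood at 20.30, 20.13 and 19.68 in HC against 19.97, 20.25 and 20.05 in CC_s and at 20.19, 20.28 and 19.40 in HHC against 20.08 and 20.23 in CCC. Obese libraries lay below all their controls, and weight loss libraries overlapped theirs. The difference was -0.95 for obesity (SE 0.15, limma adjusted p = 0.00107) and -0.12 for weight loss (adjusted p = 0.7), and in the 18 libraries -0.96 (adjusted p = 7.08e-05) and 0.14 (adjusted p = 0.73). With signal as a share of the library and by highest signal the obesity call was not made (adjusted p up to 0.0807).

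**Figure D3:**
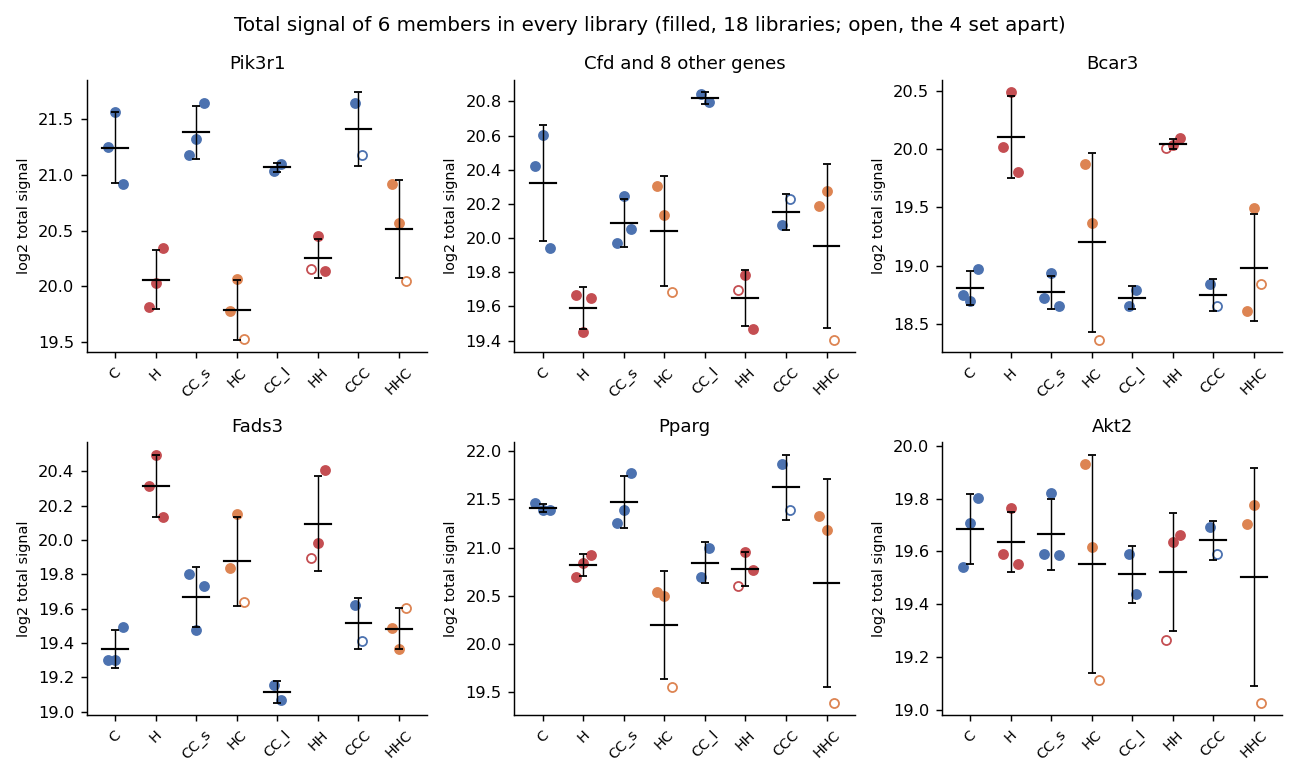
Log2 total signal after rank mapping in each library of the stretches of Pik3r1, Cfd and 8 other genes, Bcar3, Fads3, Pparg and Akt2, by group, with bars for mean ± SD and open points for the 4 libraries set apart. Pik3r1 lies below its controls in all 4 diet groups, Bcar3 and Fads3 lie above theirs in H and HH, and Akt2 overlaps in every comparison.

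Further members fell in obesity. Tkt, transketolase of the pentose phosphate pathway (chr14:30527381-30578319), stood at 19.51, 19.42 and 19.45 in C and 18.59, 18.81 and 18.57 in H and fell by 0.71 over both durations (SE 0.14, limma adjusted p = 0.00524). Fam13a fell by 0.89 (SE 0.21, adjusted p = 0.0135), with 20.39, 20.49 and 20.19 in C against 19.35, 19.39 and 19.67 in H. The Lrfn4/Pcx/Rce1 stretch, with pyruvate carboxylase (chr19:4553757-4630671), stood at 20.37, 20.39 and 20.47 in C and 19.38, 19.24 and 19.66 in H, a difference of -0.98 in H vs C (SE 0.12, adjusted p = 0.0092). Its H vs C call, like those of Tkt and Fads3, was made in 2 of the 6 fits that left out 1 library and not with signal as a share of the library. The Lrfn4/Pcx/Rce1 stretch did not pass over both durations (-0.73, adjusted p = 0.1; -0.68 and adjusted p = 0.001 in the 18 libraries). Acacb/Alkbh2/Ung, with acetyl-CoA carboxylase beta, fell by 0.70 (SE 0.21, adjusted p = 0.0464), a call made in 7 of the 22 fits that left out 1 library. In the 18 libraries the obesity calls of Tkt (-0.65, adjusted p = 0.0003), Fam13a (-0.82, adjusted p = 0.0003) and Acacb/Alkbh2/Ung (-0.71, adjusted p = 0.0064) were also made.

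Further obesity calls are named here after their values were seen. Lower were, among others, Apcdd1, an inhibitor of Wnt signalling (-0.72), Podn/Scp2 (-0.64), Ctsb, a lysosomal protease (-0.45), Pcdhgc4/Pcdhgc5 (-0.40), Rhof/Setd1b/Tmem120b (-0.39) and Bax/Ftl1/Gys1/Ruvbl2 (-0.30). Higher were, among others, C9orf72 (0.77), Snrk (0.69), the annexin genes Anxa6 (0.66) and Anxa2 (0.52), Rbpms (0.61), Synpo2, an actin-binding protein (0.61), Mmd (0.56), Slc41a3 (0.54), Adamts5 (0.52) and Optc/Prelp of matrix proteoglycans (0.51). Anxa2, the Cfd stretch, Bcar3, Fads3, Optc/Prelp, Pik3r1 and Rbpms were called in all 22 fits that left out 1 library, and the other 20 were lost in at least 1. By the highest signal of a stretch in place of its total, the differences of Acacb/Alkbh2/Ung, Podn/Scp2, Rhof/Setd1b/Tmem120b, Snrk, Adamts5, Anxa2 and Optc/Prelp changed sign.

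The 27 obesity calls had median differences of 0.61 (14 higher) and -0.64 (13 lower). In the weight loss comparison, which uses other libraries, the same 14 had a median of 0.07 with 10 above 0, and the same 13 a median of -0.32 with 12 below 0. So 22 of 27 kept their sign (81.5%) and 2 of them, Pik3r1 and the Fasn stretch, were called again (7.41%). Over all 1792 stretches called in obesity, 85.8% kept their sign and 9.04% were called again, with 88.0% of the lower ones below 0 (median -0.39) and 84.2% of the higher ones above 0 (median 0.26). In the 18 libraries 74 of 94 members kept their sign (78.7%, against 78.9% of all called stretches tested in both) and 8 were called again (8.51%, against 2.27%). The median difference of all members after weight loss, -0.12 with the 4 libraries, is the level beside which the lower members stand.

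**Figure D4:**
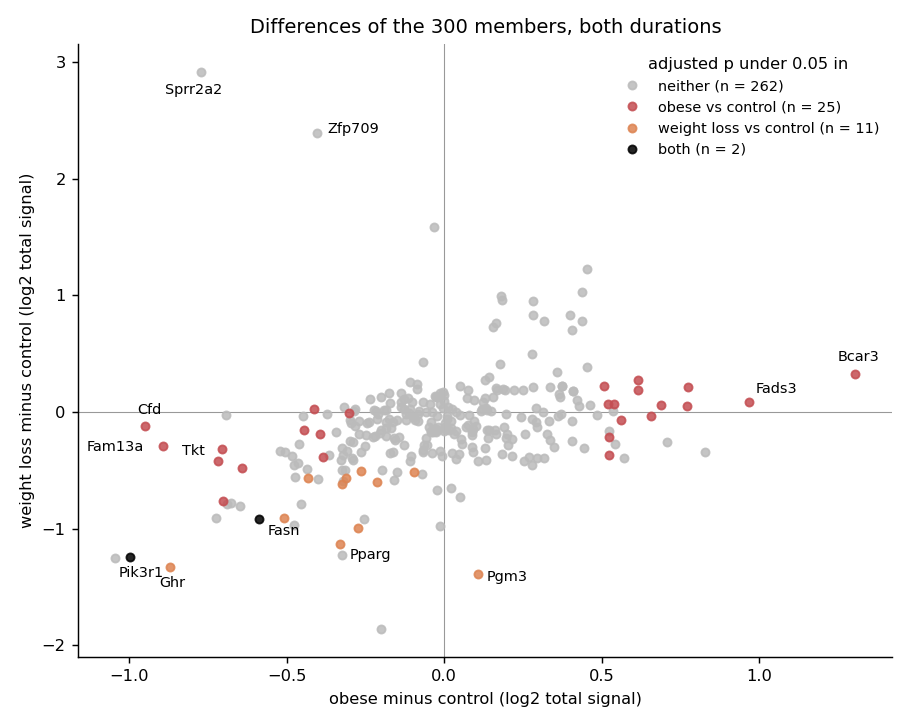
Difference in log2 total signal of each of the 300 members, obese minus control on the x axis and weight loss minus control on the y axis, both over the 2 durations. Of the points, 25 were called in obesity alone, 11 in weight loss alone, 2 in both (Pik3r1 and the Fasn stretch) and 262 in neither.

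The weight loss calls were led by Pik3r1 and Pgm3/Rwdd2a (chr9:86568480-86634278), a stretch that lies to 80.4% in Me1, the gene of cytosolic malic enzyme. It stood at 19.15, 19.05 and 19.96 in CC_s and 18.14, 18.37 and 17.83 in HC, and at 20.10 and 19.79 in CCC and 18.68, 18.59 and 18.09 in HHC. The weight loss libraries lay below all their controls. The difference was -1.38 (SE 0.19, limma adjusted p = 0.00145; -1.30 and adjusted p = 0.0359 in the 18 libraries). Its obesity difference was 0.11 (adjusted p = 0.83), from -0.70 in H and 0.91 in HH. By highest signal its weight loss difference was 0.16, of the opposite sign. The CC_l libraries, at 17.98 and 17.67, lay below all other controls.

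Pparg was called lower after weight loss. It stood at 21.46, 21.38 and 21.38 in C, 20.69, 20.84 and 20.92 in H, 21.25, 21.38 and 21.77 in CC_s and 20.54, 20.50 and 19.55 in HC. In the long arm it stood at 20.69 and 20.99 in CC_l, 20.60, 20.95 and 20.77 in HH, 21.86 and 21.38 in CCC and 21.32, 21.18 and 19.39 in HHC. All weight loss libraries lay below their controls, and the lowest values were those of HC 3 and HHC 3. The difference was -1.13 (SE 0.26, limma adjusted p = 0.0347) and -0.78 in the 18 libraries (adjusted p = 0.0167), and the call was made in 15 of the 22 fits that left out 1 library. In obesity it was -0.59 for H vs C (adjusted p = 0.014) and -0.33 over both durations (adjusted p = 0.53).

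Igf1 encodes a growth factor that growth hormone induces, and Ghr the receptor of that hormone. Igf1 stood at 19.85, 19.67 and 19.97 in CC_s and 18.67, 18.55 and 18.53 in HC, and at 19.98 and 19.90 in CCC and 19.89, 18.96 and 18.75 in HHC. Its difference was -0.99 (SE 0.18, limma adjusted p = 0.00965), and -0.89 with adjusted p = 0.0997 in the 18 libraries, where the call was lost. One of 2 stretches over Ghr (chr15:3481645-3585745), stood at 20.99, 21.04 and 21.18 in CC_s and 19.74, 19.55 and 17.69 in HC, and at 21.04 and 20.39 in CCC and 20.21, 20.46 and 19.72 in HHC, a difference of -1.33 (SE 0.29, adjusted p = 0.0288; -1.06 and adjusted p = 0.0364 in the 18 libraries). Of the fits that left out 1 library, 20 of 22 called Igf1 and 15 called Ghr. HC lay wholly below its controls for both genes, while HHC overlapped its controls for Ghr.

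Cdc42bpg/Ehd1, with a gene of endocytic recycling, fell by 0.51 (limma adjusted p = 0.0085) and Anks1 fell by 0.52 (adjusted p = 0.013). Their values in the 18 libraries were -0.48 (adjusted p = 0.0422) and -0.42 (adjusted p = 0.1008). Named after their values were seen, the others were Aacs/Tmem132b, with acetoacetyl-CoA synthetase (-0.90), Abcd2, a peroxisomal fatty acid transporter (-0.62), B4galt1 (-0.60), Angptl2 (-0.57) and Ccdc80 (-0.57). Of these 5, the 18 libraries called Aacs/Tmem132b alone (-0.77, adjusted p = 0.0422). There Abcd2 had -0.48 (adjusted p = 0.0823), B4galt1 -0.68 (0.0803), Angptl2 -0.51 (0.0624) and Ccdc80 -0.51 (0.108), so that with Igf1 and Anks1 6 of the 13 weight loss calls were lost. Of the 22 fits that left out 1 library, Pgm3/Rwdd2a was called in all, Cdc42bpg/Ehd1, Anks1, Aacs/Tmem132b and Angptl2 in 21, B4galt1 in 18, Abcd2 in 15 and Ccdc80 in 5. In the 18 libraries 3 members were higher after weight loss, Pfkfb3 (0.63, adjusted p = 0.026), Acsl1/Cenpu (0.61, adjusted p = 0.036) and Cat (0.47, adjusted p = 0.042), genes of glycolysis, fatty acid activation and peroxide breakdown.

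Of the 12 longest members, 4 were called in H vs C, where 15% of members and 9.15% of all stretches were, among them Sptbn1 higher (0.78, SE 0.16, adjusted p = 0.029), Eepd1 higher (0.45, SE 0.10, adjusted p = 0.031) and Pparg lower. Over both durations none of them passed in obesity. Sptbn1 had 0.83 (adjusted p = 0.052), Mbnl2 0.41 (adjusted p = 0.065) and Col4a1/Col4a2 0.32 (adjusted p = 0.28), and all 3 passed in the 18 libraries (adjusted p = 0.00041, 0.0032 and 0.017).

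By list, the 21 lipid genes' stretches held 0 higher and 3 lower in obesity (median -0.09) and 0 and 1 after weight loss (median -0.17), beside medians of 0.00 and 0.02 over all stretches. Over all stretches 3.49% were called higher and 2.7% lower in obesity, and 0.421% and 0.787% after weight loss, and the small lists below are to be read against these shares. The lipid list held, in the 18 libraries, 2 higher and 4 lower in obesity (median -0.04) and 1 and 1 after weight loss (median -0.02), where 9.23% and 7.01% of all were called in obesity and 0.251% and 0.267% after weight loss. The 3 lower were those of Cfd, Fasn and Acacb with 22 libraries, while Mgll, Lpin1, Lpl, Cnfn/Lipe, Cd36 and the Plin4 stretch were not called there. Of the 9 transcription factor stretches none passed in obesity (median -0.15) and Pparg alone was lower after weight loss (median -0.34), and in the 18 libraries 1 was higher in obesity (median -0.15) and 1 lower after weight loss (median -0.19). Cebpa/Lrp3/Slc7a10 had 0.05 in obesity. The 5 insulin signalling stretches held 1 higher and 1 lower (Pik3r1) in obesity, with a median of 0.28, and 1 lower after weight loss, with a median of -0.21. These stretches held, in the 18 libraries, 3 higher and 1 lower in obesity (median 0.37), and after weight loss 1 lower with a median of 0.04, of the opposite sign. Of 5 matrix stretches 1 was higher in obesity, Adamts5, a metalloprotease (0.52, SE 0.14, limma adjusted p = 0.0337), with a median of 0.32, and none after weight loss, with a median of -0.30. With 18 libraries 3 matrix stretches were higher in obesity (median 0.34) and none after weight loss (median -0.14). Sparc, a collagen-binding protein, was higher in H vs C (0.41, adjusted p = 0.025) but not over both durations (0.35, adjusted p = 0.12).

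Promoters of other cell types differed between groups in some comparisons and overlapped in others. Mesothelial promoters took 0 to 8.80 ppm of stretch signal in H and 0 to 12.5 in HH, against 10.4 to 44.8 in C and 22.7 to 29.9 in CC_l. Endothelial promoters took 164 to 177 in H against 124 to 167 in C and 147 to 353 in HH against 110 to 111 in CC_l. Genes of other tissues took 24.3 to 30.5 in H against 44.3 to 46.8 in C and 26.6 to 31.5 in HH against 39.9 to 55.6 in CC_l. Lymphocyte promoters took 2.91 to 6.93 in H against 7.28 to 12.4 in C and 4.72 to 10.4 in HH against 10.9 to 16.5 in CC_l, with a peak at 1 to 3 of 9 genes. They overlapped after weight loss, and progenitor promoters overlapped in all 4 comparisons. After weight loss, endothelial promoters took 139 to 170 in HC against 111 to 123 in CC_s, but 110 to 227 in HHC against 131 to 167 in CCC. Macrophage promoters took 53.4 to 83.8 in HHC against 39.3 to 43.9 in CCC, but 32.1 to 82.7 in HC against 40.1 to 53.9 in CC_s. Mesothelial promoters took 13.2 to 69.5 in HHC against 7.92 to 11.04 in CCC, but 30.7 to 36.4 in HC against 14.7 to 59.7 in CC_s. No mesothelial or lymphocyte marker starts in a stretch. The part of these shifts in the obesity and weight loss differences was not tested.

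The members with the narrowest range of group means were Fem1a/Plin3/Ticam1, Akt2 and Abca1. Akt2, the insulin-responsive kinase (chr7:27586908-27644718), stood between 19.03 and 19.93 in all 22 libraries, and the stretch of Plin3, a lipid droplet coat gene, between 19.23 and 19.55. Abca1, a cholesterol exporter, was at 20.80 in all 3 C libraries. At the other end, Sprr2a2 in the cluster of small proline-rich proteins (chr3:92216388-92282273) ran from no peak in 3 libraries to 20.82 in HC 3 and HHC 3. Its weight loss difference of 2.92 did not pass (adjusted p = 0.17), nor did that of Zfp709 (2.39, adjusted p = 0.22), and Cachd1 had -1.04 in obesity and -1.25 after weight loss (adjusted p = 0.14 for both). These weight loss differences were 3.43 (adjusted p = 0.0716), 2.83 (adjusted p = 0.112) and -0.98 (adjusted p = 0.204) in the 18 libraries, and none passed.

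The 4 libraries set apart differed from the 18 in the members themselves. Members took 8.19% to 10.2% of their stretch signal, against 10.6% to 12.7% in the 18. In 58 members (19.3%) the relative density of all 4 lay below all 18, against 2.43% of all stretches, and in 1 (0.333%, against 0.283%) it lay above. The ratio of mean densities, 4 to 18, had a median of 0.662 in members and 0.691 in all. It was lowest at Cachd1 (0.29) and Ghr (0.31). Pdia4 did not share this, with 5.82 to 7.81 in the 4 and 6.20 to 7.72 in the 18.

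In 16 members (5.33%, against 5.69% of all stretches) the ratio was over 1.5, and they were listed after their values were seen. Sprr2a2 led with 0.812 to 2.10 in the 4 and 0 to 0.797 in the 18, followed by Zfp709 (ratio 3.95), Tcp10c (3.00), Gm9758/Speer4e (2.80) and Sp110/Sp140 (2.78). Eif4enif1/Sfi1 had 8.39 to 20.4 against 3.51 to 8.85. The others hold Speer4d, Smok2a and Smok2b, Ugt1a1, C130026I21Rik, Gm15319 and predicted genes. Some belong to families of near-identical copies, in which reads can be split or placed on the wrong copy. Whether this bears on the ratios was not tested. The 16 members lay on 6 chromosomes. Their median repeat-masked share was 32.2% (17.7% to 55.3%) against 20.1% (7.37% to 38.7%) in the other 284, with overlapping ranges. Their median GC content was 41.9% against 48.7%.

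**Figure D5:**
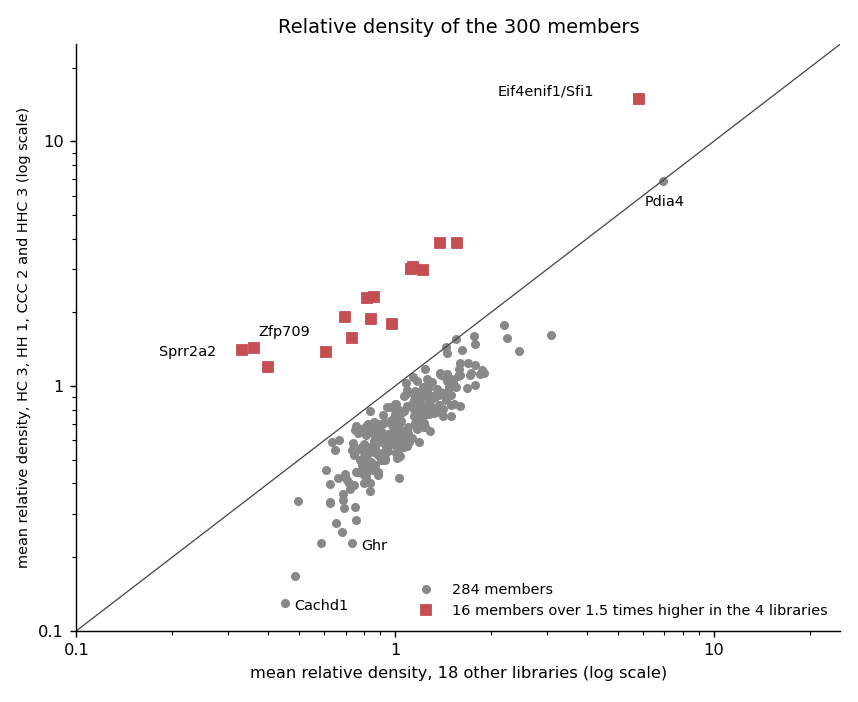
Mean relative density of each member in the 18 other libraries (x axis, log) and in the 4 libraries set apart (y axis, log). Most members lie below the diagonal, with a median ratio of 0.662, and the 16 red squares have a ratio over 1.5.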

How the data were processed

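ATAC-seq was measured in 22 libraries of adipocyte nuclei pulled down by their biotin tag, and the deposited files are 1 peak list per library with summed and highest signal per peak. The authors made this signal from their own coverage of each library, without pooling. Per the methods and the submitters' processing notes, reads were trimmed (Trim Galore 0.6.6), aligned to GRCm38 (Bowtie2 2.4.4), sorted (SAMtools 1.13), summarised as coverage (bedtools 2.30) and called with SEACR 1.3 in stringent mode at 0.01, with blacklisted regions removed. The lists give no read totals, so the depth of each library is unknown and no counting interval can be given. Coverage signal is not normalised between libraries. Every column was matched to a sample (0 unmatched).

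Stretches, covered shares and signals were computed here (Python 3.11.15, numpy 2.4.6, pandas 2.3.3). The total signal of the 21123 strongest stretches of each library was mapped by rank onto 1 shared distribution, and the rest were set to its floor (log2 14.07). Comparisons used limma 3.58.1 (R 4.3.3, moderated with a trend) across all stretches that had a peak in at least the number of libraries of the smaller group, called at a Benjamini-Hochberg adjusted p under 0.05. Single comparisons used only the libraries of both groups, and comparisons over both durations used all 22. The steps were tested on simulated data.

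Stretches named are the 12 longest, those of smallest p per diet comparison (3 by signal, 2 by covered share), the 3 widest and 3 narrowest over group means, those at the threshold, and up to 6 longest per gene list. Others are said to have been picked after their values were seen, and some members under the rule are not reported here. The members and lists were chosen with earlier results of these data known. A stretch is called by the coding genes starting in it, otherwise by gene bodies, otherwise by the nearest start. Same replicate numbers did not pair samples, since deviations correlated at -0.171 to 0.282. Alternatives changed the scaling, measure, peak list, joining, library number, block and libraries.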

Additional observations from a re-analysis of the deposited data

How the results depend on the processing

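The number of members called rested on the fit and the scaling. By total signal, H vs C called 45 members in the reported fit, 2 with a log2 difference above 1 also required, 0 with signal as a share of the library, 5 by highest signal, 14 with bases covered in 16 of 22 libraries, 24 with a replicate block, 15 with all 22 libraries fitted and 69 with 18. Obesity over both durations called 27, and 1 with the log2 rule, 1 as a share of the library, 12 by highest signal, 13 from the 10000 strongest peaks, 10 with 16 of 22 libraries and 94 with 18 libraries. Weight loss called 13, and 4 with the log2 rule, 3 as a share, 4 by highest signal and 4 with 16 of 22 libraries. By highest signal 3 of the 27 and 1 of the 13 members themselves stayed called. Where the reported count was 0, HC vs CC_s gave 7 with all 22 libraries fitted and 11 with 18, HH vs CC_l gave 3 with a replicate block, 2 with all 22 and 15 with 18, HHC vs CCC gave 6 and CC_s vs C 1 with a replicate block, and CCC vs CC_l gave 1 with the block, 1 with all 22 and 10 with crossed numbers. The labels' numbers do not pair the samples, so a count under the block says nothing of the strength of an effect. By covered share, 0 members became 3 in H vs C and 1 in weight loss from the 10000 strongest peaks, and 1 in obesity after centring. As a share of the library all 27 and all 13 differences kept their sign, and the cause of the lost calls was not tested.

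Median differences in log2 total signal moved for H vs C from -0.02 to -0.0615 as a share, -0.0578 by highest signal, -0.0014 from the strongest peaks, -0.0017 with the longer joining distance and 0.0097 with 16 of 22 libraries. HC vs CC_s moved to -0.30, HH vs CC_l to -0.0765, obesity to -0.0774 and weight loss to -0.25 as a share, where the medians of all stretches were -0.23, -0.12, -0.12 and -0.39 and that of HHC vs CCC was -0.17. HH vs CC_l also moved to -0.0846 from the strongest peaks and 0.0010 with 16 of 22 libraries, HHC vs CCC to 0.0197 with a replicate block and 0.0117 with 18 libraries, and weight loss to 0.0204 with 18. Medians of covered share moved after centring to 1.25 percentage points (H vs C) and 5.94 (HC vs CC_s).

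Signs reversed by highest signal in obesity for Acacb/Alkbh2/Ung (0.11), Podn/Scp2 (0.0735), Rhof/Setd1b/Tmem120b (0.0114), Snrk (-0.17), Adamts5 (-0.0738), Anxa2 (-0.00232) and Optc/Prelp (-0.14), in weight loss for Pgm3/Rwdd2a (0.16), and with 16 of 22 libraries for B4galt1 (0.0652).

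Leaving out 1 library moved the counts by signal from 0 (without C replicate 1) to 58 (without C replicate 3) for H vs C. They ran from 0 to 4 (without HC replicate 3) for HC vs CC_s. For obesity they ran from 9 (without CC_l replicate 1) to 56 (without HHC replicate 3). HHC replicate 3 enters there through the shared spread and the stretches tested, and their parts were not separated. For weight loss they ran from 4 (without CCC replicate 2) to 21 (without HHC replicate 1). The counts were 0 in the other comparisons and in those of covered share. Medians of signal ran from -0.0404 to 0.0108 (H vs C), -0.18 to 0.02 (HC vs CC_s), -0.06 to -0.0035 (HH vs CC_l), -0.21 to 0.0197 (HHC vs CCC), -0.05 to -0.0069 (obesity) and -0.17 to -0.05 (weight loss). Medians of covered share ran from -6.37 to -1.88, -27.8 to -0.195, -12.7 to 1.65, -24.8 to 2.4, -8.74 to -0.793 and -21.6 to -7.09 percentage points in the same order. Other rules kept 202 (16 of 22 libraries) to 288 of the 300 members, with 254 kept without the 4 libraries.

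Limits are that the depth of each library is unknown, long-arm controls number 2 libraries a group and CCC only 1 in the 18-library fit, peak signal is summed coverage without a shared background, and 4 libraries stand apart. The 18-library fit and the crossed numbers were added after the data were seen.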
